A study of Populus tremula with 16 samples.

Results

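Chalcone synthase is the enzyme that opens the flavonoid pathway. The 6 poplar gene IDs of its family were taken by their identifiers, from a fixed list of chalcone synthase genes, out of 41335 IDs counted in leaves of Populus tremula (European aspen). All 6 were in the raw count table, 2 were in the normalised table, and the same 2 passed the filter on low counts that left 15583 IDs for testing. The IDs are Potri.014G145100, the neighbours Potri.001G051500 and Potri.001G051600, and the run of Potri.003G176700, Potri.003G176800 and Potri.003G176900. Apart from this list, the tables do not pair IDs with gene names, so the leaf identity of the samples was not checked against marker genes and other enzymes of the pathway are not described.

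Chalcone synthase joins a phenylpropanoid starter, p-coumaroyl-CoA, with units of malonyl-CoA and closes the chain into a chalcone. All flavonoids derive from this step, among them the anthocyanins that redden autumn leaves, the flavonols that screen ultraviolet light and, in poplars, the condensed tannins that leaves store. Plants often hold several chalcone synthase copies, and copies that lie next to each other on a chromosome can be alike enough to share sequencing reads.

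The study followed leaf RNA through autumn senescence, the programmed breakdown of the leaf before it drops, with 1 sequencing library per collection date in 2011. The labels name no genotype, treatment or tree and do not say whether leaves were pooled; they give the date and the tissue. The dates were put into 3 calendar periods, early (27 July and 5, 19 and 31 August, n = 4), middle (2, 5, 9, 11, 13 and 15 September, n = 6) and late (18, 22, 26 and 28 September and 1 October, n = 5). Single dates serve as replicates, so the spread within a period contains real change between dates as well as technical error. Neighbouring dates are not independent, which can make p-values too small. The net effect of both on the p-values was not tested.

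Libraries held 719419 to 6729131 counts, with the lowest totals on 11 September, 15 September and 1 October. The library of 19 September was left out, since its counts were nowhere above those of 18 September (0 of 18378 IDs with a count). Levels are CPM, counts brought to a common library total, after TMM scaling, which uses a trimmed mean of log ratios between libraries. Where a library had no read of an ID, up to 3 counts remain possible, and 3 counts correspond to 0.605 to 3.73 CPM depending on the library. In whole leaves, fewer cells of a type and less RNA per cell cannot be told apart. Intervals on single libraries are 95% intervals of counting error only.

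Nearly all counted chalcone synthase reads fell on a single ID. Over the 15 libraries Potri.014G145100 collected 1515 counts, 90.7% of the family's counts. Potri.001G051600 collected 98 counts (5.87%), Potri.003G176700 had 22, Potri.003G176900 had 14, Potri.001G051500 had 12 and Potri.003G176800 had 9. These are shares of counts and not of transcripts per length, since gene lengths were not used here. How reads that match several copies were counted is not stated, so the division of counts within the 001G pair and within the 003G run is uncertain. If such reads were left out, copies that share reads would be undercounted, and their share beside Potri.014G145100 would be too low. This was not tested.

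**Figure D1:**
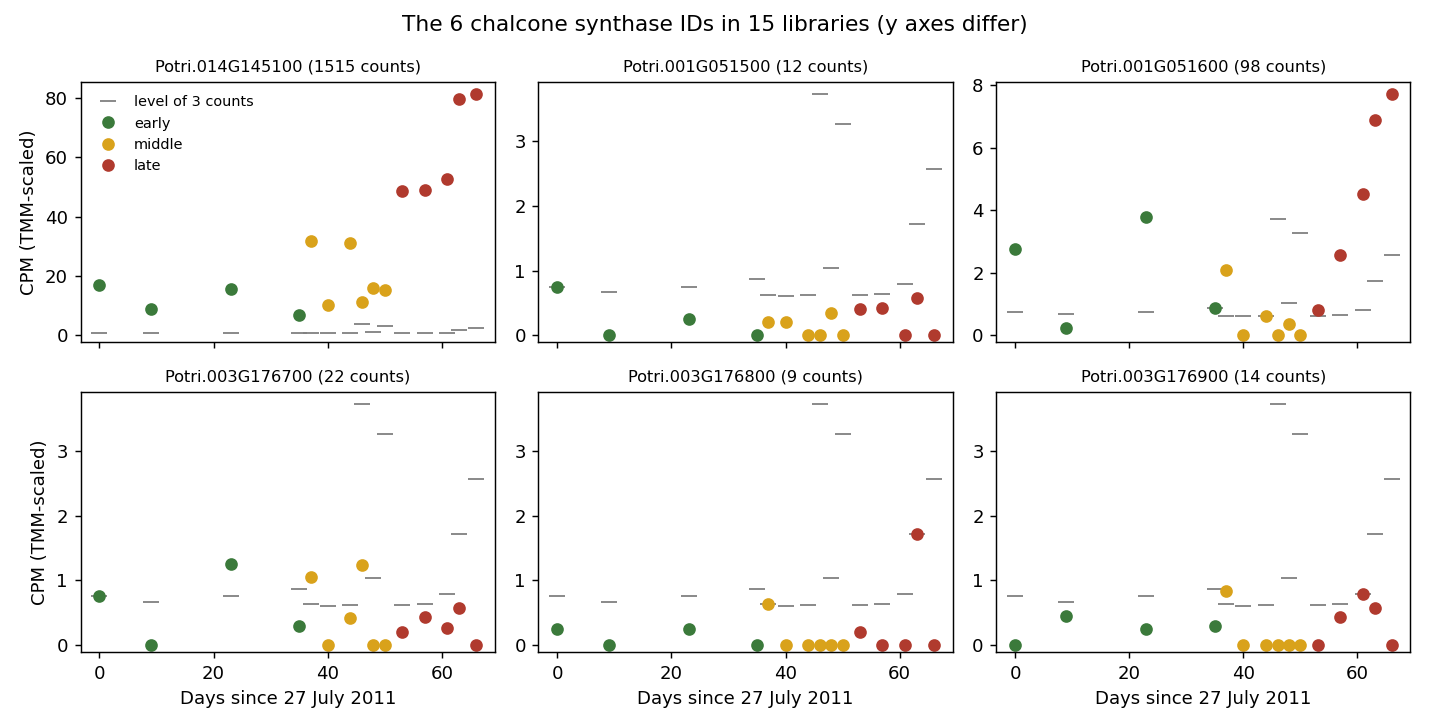
Each panel plots the TMM-scaled CPM of 1 chalcone synthase ID (y axis, a scale of its own) against days since 27 July 2011 in 15 libraries, coloured by period, with grey dashes at the level of 3 counts in that library. Potri.014G145100 lies above the dashes on every date, and the IDs with 9 to 22 counts lie mostly on or below them.

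Potri.014G145100 rose in late leaves to several times its level of summer. In the early libraries it stood at 17.0, 8.85, 15.6 and 6.96 CPM on 27 July and 5, 19 and 31 August. In the middle libraries it stood at 31.8, 10.3, 31.3, 11.2, 15.9 and 15.2 CPM on 2, 5, 9, 11, 13 and 15 September. The late libraries had 48.5, 48.9, 52.8, 79.8 and 81.3 CPM on 18, 22, 26 and 28 September and 1 October. Every late library was thus above every earlier one, while early and middle libraries overlapped.

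Potri.014G145100 averaged 12.1 ± 4.95 CPM over the 4 early libraries, 19.3 ± 9.75 CPM over the 6 middle libraries and 62.2 ± 16.8 CPM over the 5 late libraries (mean ± SD). Late leaves were above early leaves by 2.35 log2 units (SE 0.39), with an adjusted p of 0.00011 by edgeR's quasi-likelihood test with Benjamini-Hochberg adjustment over all tested IDs. By summed counts, 898 late against 194 early, this was 4.55-fold (exact binomial interval 3.89 to 5.34, counting error only). Late leaves were also above middle leaves, by 1.64 log2 units (SE 0.34, edgeR adjusted p = 0.00101). Middle and early leaves differed by 0.71 log2 units (SE 0.37), which did not pass the test (edgeR adjusted p = 0.318).

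Of the 2 tested members, 1 was called higher late than early, where 29.2% of all tested IDs were called higher. Both were called higher late than in the middle period, where 24.5% of tested IDs were. Neither was called higher in the middle period than early, where 2.38% of tested IDs were. That count of 0 by edgeR was also 0 at an unadjusted p under 0.05 and 0 by DESeq2 and by limma-voom. Late libraries lay wholly above early ones, as they did for Potri.014G145100, for 21.7% of tested IDs, and wholly above middle ones for 12.1%. A late increase of this kind was therefore common in these leaves. The size of the late to early change of Potri.014G145100 was exceeded by 10.2% of the tested IDs, whose median change was 0.01 log2 units.

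**Figure D2:**
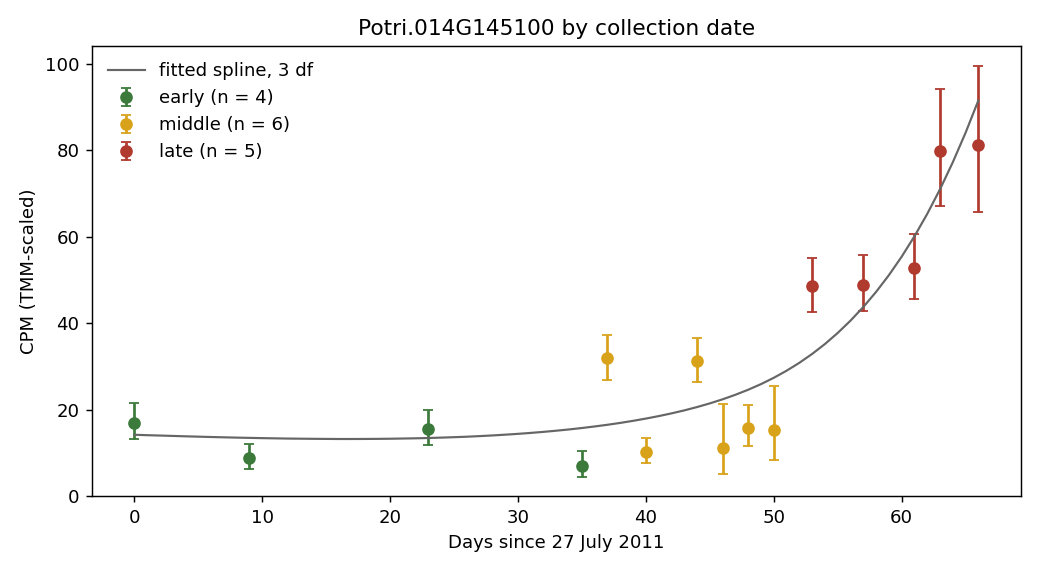
The plot shows the TMM-scaled CPM of Potri.014G145100 (y axis) against days since 27 July 2011, with points for single libraries coloured by period, bars for 95% Poisson intervals of counting error and a grey line for the fitted natural cubic spline. The 5 late libraries sit between 48.5 and 81.3 CPM, all above the early and middle libraries, and the libraries of 2 and 9 September stand above their neighbours.

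Between neighbouring dates, the clear upward steps of the second part of September lay between 15 and 18 September and between 26 and 28 September. The level on 18 September was 3.19-fold that on 15 September (exact interval 1.86 to 5.92). From 18 to 26 September neighbouring dates did not differ beyond counting error, with ratios of 1.01 (0.837 to 1.21) and 1.08 (0.888 to 1.31). On 28 September the level was 1.51-fold that of 26 September (1.21 to 1.89), a step that 29.3% of IDs with a mean of at least 10 CPM matched or passed, and on 1 October it was 1.02-fold that of 28 September (0.776 to 1.33). The last 2 dates averaged 80.5 CPM, against 50.1 CPM on the other 3 late dates.

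Over the whole course both tested members changed with the day, by edgeR's test of a natural cubic spline with 3 degrees of freedom, as did 62.9% of all tested IDs. For Potri.014G145100 the adjusted p was 0.00028. Its fitted curve was lowest on day 17 at 13.2 CPM, stood at 91.4 CPM on day 66 and passed the middle of its net log2 change on day 55, between the libraries of 18 and 22 September. The curve had 37.7 CPM on day 55, and the measured level was already above this on 18 September (day 53), at 48.5 CPM. The curve smooths over the differences between neighbouring dates, which were large for this gene.

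In summer and early September, Potri.014G145100 went up and down between neighbouring dates by more than counting error. Of its 14 steps from a date to the next over the whole course, 9 had an exact interval that left out 1. These include the late steps to 18 and 28 September. All 9 kept their direction with library totals alone, with relative log expression and with upper quartile scaling. The level on 5 August was below that on 27 July by 1.92-fold (1.28 to 2.92), and on 19 August it was 1.76-fold that on 5 August (1.16 to 2.69). On 31 August it was 2.24-fold below that on 19 August (1.38 to 3.75).

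Before the late increase, the widest swings came at the start of September. On 2 September the level was 4.58-fold that on 31 August (2.96 to 7.36), from 152 counts against 24. On 5 September it was 3.09-fold below that on 2 September (2.24 to 4.34), and on 9 September it was 3.04-fold that on 5 September (2.2 to 4.26). On 11 September it was 2.8-fold below that on 9 September (1.43 to 6.23), from only 9 counts.

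These swings were larger than those of most other IDs with a mean of at least 10 CPM. The median absolute step of 5876 such IDs was 0.401 log2 units between 31 August and 2 September, where Potri.014G145100 differed by 2.1 log2 units. Only 1.43% of these IDs went up by as much or more in that step. In the next step 1.99% went down by as much, and in the one after, to 9 September, 2.52% went up by as much. Between 18 and 22 September, in contrast, 47.9% had a step at least as high.

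Whole libraries also did not follow the order of dates, and their part in the swings was not tested. Over all tested IDs, 27 July had a Spearman correlation of 0.875 to the library of 5 August, 0.943 to that of 19 August and 0.889 to that of 31 August. The library of 2 September had one of 0.858 to 31 August, 0.894 to 5 September and 0.926 to 9 September. Within each of these sets of dates, the date on which Potri.014G145100 was also high was the closest. This did not hold between the sets, since 2 September had a correlation of 0.806 to 27 July, below all those above. With 1 library a date, a difference between leaves and a difference between days cannot be told apart.

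Potri.001G051600, the second copy that could be tested, had 30 early, 14 middle and 54 late counts. Of its differences between periods, only late against middle passed the test. Its early libraries had 11, 1, 15 and 3 counts, or 2.76, 0.221, 3.77 and 0.87 CPM, on 27 July and 5, 19 and 31 August. Of these, 5 August lay below the level of 3 counts and 31 August lay at it. The middle libraries had 10, 0, 3, 0, 1 and 0 counts on 2, 5, 9, 11, 13 and 15 September, of which only 2 September, at 2.1 CPM, was above the level of 3 counts. On 11 and 15 September 3 counts correspond to 3.73 and 3.26 CPM, so levels like most of the early ones remain possible there. The late libraries had 4, 12, 17, 12 and 9 counts on 18, 22, 26 and 28 September and 1 October, or 0.822, 2.56, 4.51, 6.89 and 7.7 CPM. Late levels climbed with the date, and those of 18 and 22 September lay within the early range.

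Potri.001G051600 averaged 1.9 ± 1.64 CPM over the 4 early libraries, 0.51 ± 0.816 CPM over the 6 middle libraries and 4.5 ± 2.88 CPM over the 5 late libraries (mean ± SD). Late leaves were above middle leaves by 2.41 log2 units (SE 0.78, edgeR adjusted p = 0.0179), from 54 counts against 14. Without 2 September this difference was 3.64 log2 units. The call ended without 28 September and 1 October (1.78, edgeR adjusted p = 0.0868) and without the 4 libraries of lowest depth (1.63, edgeR adjusted p = 0.144). Those 4 are 11, 15 and 28 September and 1 October, so these settings overlap, and depth apart from date was not tested.

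Late and early leaves differed in Potri.001G051600 by 1.03 log2 units (SE 0.73), which did not pass (edgeR adjusted p = 0.235), and middle and early leaves by -1.38 (SE 0.85, edgeR adjusted p = 0.412). Single libraries moved the middle to early value, to -2.65 without 2 September and to -0.83 without 19 August, and it was not called in either case (edgeR adjusted p = 0.17 and 0.769). By summed counts the middle level was 0.388 times the early one (exact interval 0.19 to 0.754), from 14 counts against 30, so counting error alone was smaller than the difference while the spread between dates was not. The change with the day was called at an edgeR adjusted p of 0.00503, with a fitted minimum of 0.658 CPM on day 48, and that call ended without the 4 libraries of lowest depth (edgeR adjusted p = 0.0993).

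**Figure D3:**
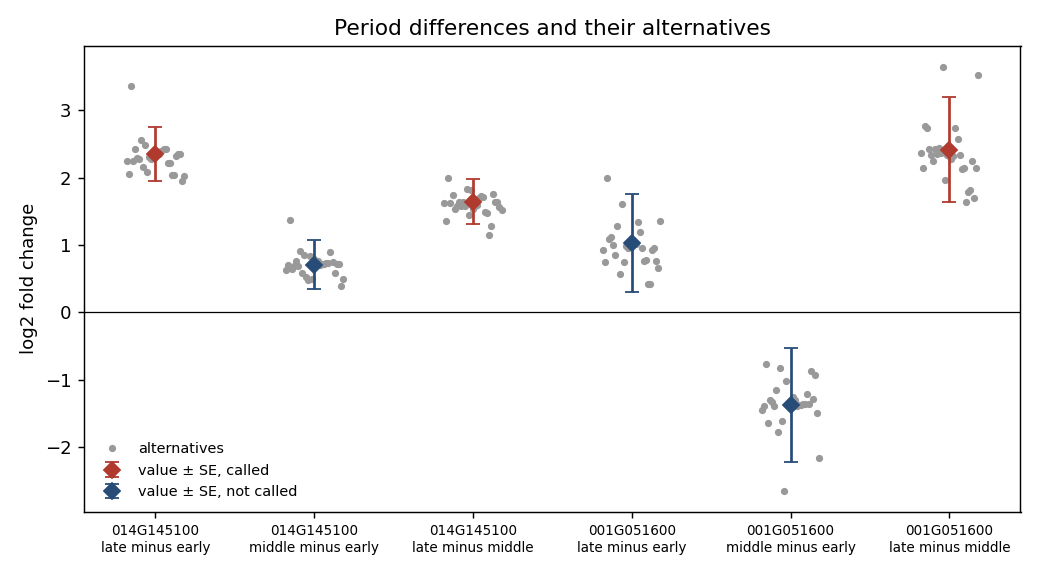
Diamonds give the edgeR log2 fold change (y axis) of each tested chalcone synthase ID in each pair of periods, the later period over the earlier, with bars for the SE and red for adjusted p under 0.05. Grey dots are the same value under each alternative processing, and all dots of a column lie on the same side of 0 as its diamond.

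The other 4 members were near the limit of detection on every date. Potri.003G176700 had 3, 0, 5 and 1 counts in the early libraries, 5, 0, 2, 1, 0 and 0 in the middle ones and 1, 2, 1, 1 and 0 in the late ones. Its pooled levels were 0.564 CPM over the early libraries, 0.417 CPM over the middle ones and 0.308 CPM over the late ones, and the late to early ratio of 0.546 had an exact interval of 0.144 to 1.81. It was the only member with fewer summed counts late than early, 5 against 9, and the interval shows that no difference was detectable at this depth.

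Potri.003G176900 reached at most 4 counts, on 2 September, and had none from 5 to 18 September. Its late to early ratio of summed counts was 1.47 (exact interval 0.349 to 7.1). Potri.001G051500 reached at most 3 counts, on 27 July, with a ratio of 1.23 (0.264 to 6.19). Potri.003G176800 reached at most 3 counts, on 2 and 28 September, and its 4 late and 2 early counts gave a ratio of 1.96 (0.282 to 21.7). Changes of several-fold in either direction lie within these intervals. With no filter on low counts, the 4 IDs entered the fit and none was called in any of the 4 tests by edgeR. Their edgeR adjusted p was 0.515 to 0.87 for late against early and 0.463 to 0.642 for the time course. Of the 30299 IDs in that fit, 11253 were called late against early, 7915 late against middle, 710 middle against early and 12751 over the time course.

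Summed, the 003G run had 15 counts in each period, and late to early ratios of 0.447 to 2.16 lay within its exact interval. The 001G pair summed had 59 late counts against 17 in the middle period and passed the test as Potri.001G051600 alone did, with 2.25 log2 units (SE 0.71, edgeR adjusted p = 0.0155). The 003G run did not pass the filter on low counts even when summed. The pair and the run thus had different counts of members tested, and a difference between them in change over autumn was not tested.

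The other copies were followed between neighbouring dates singly and as a sum, in which Potri.001G051600 had the most counts over the 15 libraries. On 2 September, however, it had 10 of the 23 summed counts and the 003G run had 12. Of single copies, Potri.001G051600 had 4 steps of 14 whose interval left out 1 and Potri.003G176700 had 1, while the other 3 had 0. Summed, a grouping chosen after their values were seen, the other 5 members had 18, 3, 23 and 5 counts on 27 July and 5, 19 and 31 August, and 23, 1 and 5 counts on 2, 5 and 9 September. Their summed level was 0.664 CPM on 5 August against 4.51 CPM on 27 July, 1.45 CPM on 31 August against 5.78 CPM on 19 August, and 0.202 CPM on 5 September against 4.82 CPM on 2 September. On 19 August the sum was 8.71-fold that on 5 August (exact interval 2.63 to 45.3), and on 2 September it was 3.32-fold that on 31 August (1.24 to 11.2). Up to 5 September all 5 steps had intervals that left out 1, and each had the direction of Potri.014G145100 in the same step. No later step of the sum had such an interval. Its ratio lay on the other side of 1 from that of Potri.014G145100 to 11 September (1.2 against 0.358), 13 September (0.555 against 1.42) and 1 October (0.745 against 1.02), and on the same side in the rest. How many other IDs had the same directions up to 5 September was not counted. On 9 September the sum was 5.13-fold that on 5 September, from 5 counts against 1, with an interval of 0.574 to 243 that leaves this step undecided.

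**Figure D4:**
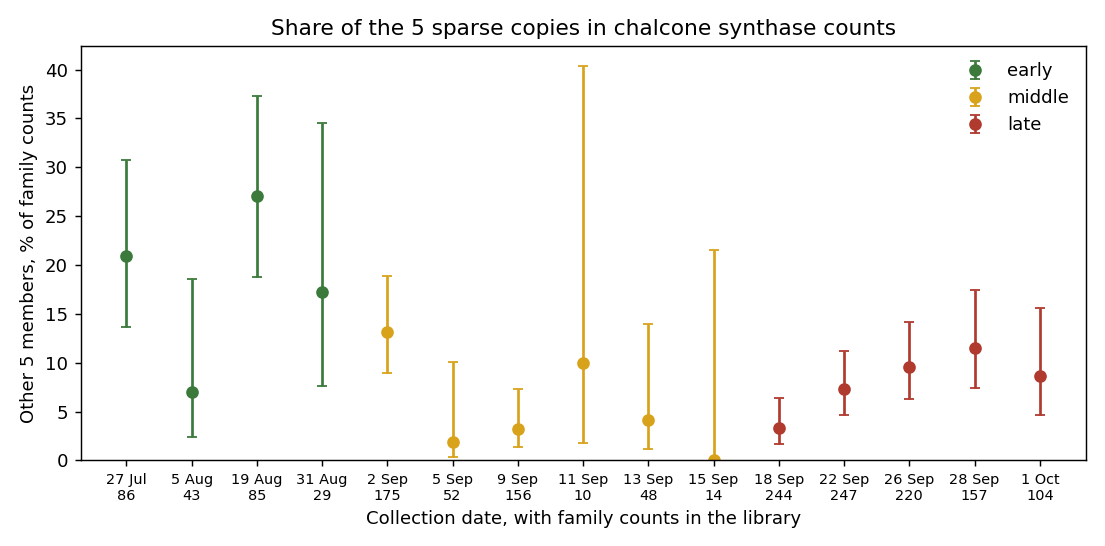
Points give the share of all chalcone synthase counts that fell on the 5 IDs other than Potri.014G145100 (y axis, percent) for each collection date (x axis, with the family's counts in that library), with bars for 95% Wilson intervals. The share is highest on 19 August at 27.1% and lies between 3.28% and 11.5% in the late libraries.

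In pooled counts the sparse copies took a larger share early than later, while the shares of single libraries overlapped between the periods. The other 5 members took 20.2% of the family's 243 early counts (Wilson interval 15.6 to 25.7%), 7.03% of 455 middle counts (5.03 to 9.76%) and 7.61% of 972 late counts (6.11 to 9.45%). These intervals hold counting error only and leave out the spread between libraries. Per library the share was 6.98 to 27.1% early (median 19%), 0 to 13.1% in the middle period (median 3.69%) and 3.28 to 11.5% late (median 8.65%). The library with no such count was 15 September, where 14 family counts allow a share of up to 21.5%. The share does not depend on how libraries are scaled, but it may depend on how reads with several matches were counted. Early and late libraries overlapped in it, since 5 August, with 6.98%, lay inside the late range.

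The ratio of the 2 tested copies within a library was compared for each pair of periods with a two-sided exact permutation test, 3 contrasts in all. The log2 ratio of Potri.014G145100 to Potri.001G051600 counts (0.5 added to each) averaged 3.04 ± 1.19 over the early, 5.01 ± 0.992 over the middle and 4.05 ± 0.991 over the late libraries (mean ± SD). Middle and early libraries differed by 1.97 (exact permutation p = 0.0286, adjusted 0.0857), which did not pass after adjustment. Late and early libraries differed by 1.01 and late and middle ones by -0.96, with adjusted exact permutation p = 0.206 for both. Potri.001G051600 had 0 counts in 3 of the 6 middle libraries, where the ratio rests on the added 0.5. With 1 added instead, middle and early libraries differed by 1.55 (adjusted exact permutation p = 0.129). Late and middle ones then differed by -0.45 and late and early ones by 1.1 (adjusted exact permutation p = 0.433 and 0.25). An unequal change of the 2 copies was therefore not shown, although only 1 of them was called higher late than early.

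Over the 15 libraries the log2 CPM of these copies had a Pearson r of 0.73 and a Spearman rho of 0.74. Over the 10 early and middle libraries r was 0.39. Both values are descriptions of points that share a library, its depth and its date.

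**Figure D5:**
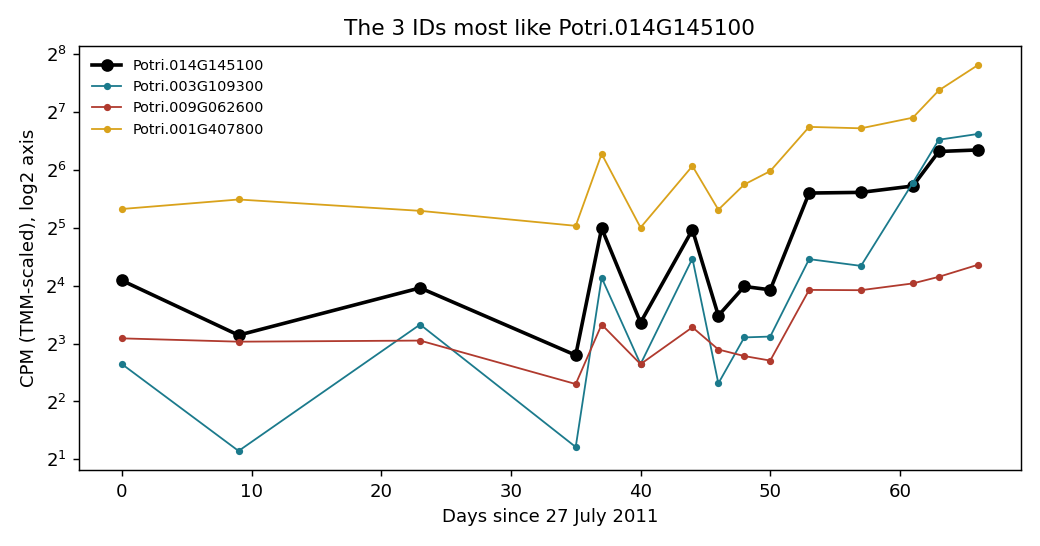
Lines join the TMM-scaled CPM (log2 axis) of Potri.014G145100 and of the 3 IDs outside the family with the highest Pearson r to it, by days since 27 July 2011. All 4 lines reach their maximum on 1 October, and each is higher on 2 and 9 September than on 5 September.

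The 3 IDs whose course was most like that of Potri.014G145100 likewise reached their maximum on 1 October and were higher on 2 and 9 September than on 5 September. They were picked by likeness over these same libraries, so shared highs follow from the choice. How many of all IDs had this pattern was not counted. Among 5875 IDs outside the family with a mean of at least 10 CPM, 113 had a Pearson r of log2 CPM above 0.9 with it over 15 libraries. The highest were Potri.003G109300 (r = 0.96), Potri.009G062600 (r = 0.95) and Potri.001G407800 (r = 0.95). With Spearman's rho the same IDs ranked 9, 8 and 39, and with library totals alone they ranked 2, 1 and 5, so they stand for a wider group. Potri.003G109300 had 2.32 CPM on 31 August, 17.6 CPM on 2 September, 6.26 CPM on 5 September, 22.1 CPM on 9 September and 4.97 CPM on 11 September. It averaged 5.21 ± 3.74 CPM over the early, 11.4 ± 6.88 CPM over the middle and 57.5 ± 37.1 CPM over the late libraries (mean ± SD). Its late library of 22 September, at 20.3 CPM, lay below that of 9 September.

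For Potri.001G051600, 2 IDs had an r above 0.9, Potri.017G138900 (r = 0.94) and Potri.006G199800 (r = 0.91), followed by Potri.002G104000 (r = 0.88). Potri.017G138900, again picked by likeness over these libraries, was high on the summer dates on which the copy was high. It had 28.6 CPM on 27 July, 7.3 CPM on 5 August, 24.1 CPM on 19 August and 6.96 CPM on 31 August. It was lowest on 13 September at 3.45 CPM and reached 104 CPM on 28 September. No gene names were used for these IDs, and only the likeness of their courses was measured.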

How the data were processed

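Counts and normalised values, 2 kinds of table, were deposited by the authors. Raw counts covered 41335 IDs in 16 libraries, and single-library tables held the same counts. The deposited normalised signal covered 19769 IDs and was the raw count over a constant of its library, within 0.01 for 99.98% of values. The submitters' processing notes list STAR 2.4, HTSeq, Trimmomatic 1.0, FastQC 1.0 and CASAVA 1.8.2, in no stated role. The genome build, the strand setting and the handling of reads with several matches, which decides how near-identical copies share reads, were not given in the sources used here.

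From the raw counts of 15 libraries, IDs were kept by filterByExpr (minimum count 10, minimum total 15), scaled by TMM and tested by quasi-likelihood (glmQLFit and glmQLFTest of edgeR 4.0.16, R 4.3.3), for 3 period contrasts in 1 fit and, in a separate fit, for a spline (natural cubic, 3 degrees of freedom) over days. The p-values of these fits were Benjamini-Hochberg adjusted over all 15583 tested IDs and called at 0.05. Permutation p-values were adjusted over the 3 period contrasts, and alternatives that tested other IDs over their own IDs. SE is the log2 fold change over the root of F. Library intervals are exact Poisson, ratios of summed counts exact binomial, shares Wilson, all at 95%. Ratios of 2 copies used members with at least 10 counts in at least 4 libraries. The named non-members are the 3 with the highest Pearson r (log2 CPM, prior count 2) to each tested member. The members, periods and lists were chosen with earlier results of these data known. A list of other flavonoid pathway IDs was not used, since the sources do not annotate them. Alternatives used DESeq2 1.42.0 and limma 3.58.1, the latter through voom on the counts and on log2(value + 1) of the normalised table.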

Additional observations from a re-analysis of the deposited data

Results flagged for a closer look

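Of 18 groups of 4 to 6 libraries (6 members in 3 periods), 4 had an extreme library whose gap to the next value passed the 95% limit of Dixon's test. About 1 in 20 groups would be picked by chance, and more may be where counts are near 0. In 3 of them the library was that of 2 September. Potri.001G051600 was at 2.1 CPM there, from 10 counts, Potri.003G176900 at 0.838 CPM, from 4 counts, and Potri.003G176800 at 0.628 CPM, from 3 counts. For Potri.003G176900 and Potri.003G176800 the other 5 middle libraries had 0 counts, so any count on 2 September would have passed the limit. The other was Potri.003G176800 at 1.72 CPM on 28 September, from 3 counts. Each of the last 3 values rests on a handful of reads, and none of these gaps was tested further.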

How the results depend on the processing

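Potri.014G145100 kept its direction in all 4 tests under all 29 alternatives, and its calls late against early (1.95 to 3.36 log2 units), late against middle (1.14 to 1.99) and over the time course held in each. The alternatives include summing the neighbouring copies and summing the other 5 members. Both leave the counts of Potri.014G145100 unchanged and put the sum in the place of Potri.001G051600. Neither of the 2 tested members reversed in any of the 4 tests; the other 4 members were fitted only with no filter. Library totals alone shifted the median of all tested IDs by 0.92 log2 units for late against early and 0.62 for middle against early. With them, Potri.014G145100 was also called higher in the middle period than early (1.37) and Potri.001G051600 higher late than early (1.99). The members called became 1 for middle against early and 2 for late against early. Of all 15583 tested IDs, 3820 and 10390 were then called in these contrasts, 96.4% and 79.4% of them higher. Without the 4 libraries of lowest depth the calls of Potri.001G051600 ended for late against middle (1.63) and for the time course (1.58), which left 1 member called in each. Of 15196 IDs tested there, 5886 and 7048 were called. Without 28 September and 1 October the late against middle call of Potri.001G051600 ended (1.78) and left 1, with 6060 of 15643 tested IDs called. Both settings remove 28 September and 1 October, and other causes were not tested. The log2 ratio of both copies passed with period limits 1 date later for late against middle (-1.69) and middle against early (2.11), and ranged from 1.63 to 2.54 for the latter contrast when 1 library was left out, passing without 5 August. With 1 added to each count in place of 0.5 it was -0.45 for late against middle and 1.55 for middle against early, and neither passed.

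Over the whole table, 705 IDs were called between middle and early leaves. That count was 3820 with library totals alone, 96.4% of them higher against 52.6%, 1213 with DESeq2, 1633 without the 4 libraries of lowest depth, 2243 without 28 September and 1 October, 100 and 103 with period limits 1 date earlier and later, and 162 to 1031 with 1 library left out. The counts of the other 3 tests stayed within 1.5 times their values. The share of higher calls was 50.3% late against early, and 40.8% with upper quartile scaling or 79.4% with library totals; late against middle these were 51.2%, 38.2% and 65.2%. No paired analysis was possible because the dates carry no shared replicate numbers. Depth limits the 4 sparsest members to a few counts, so that several-fold changes in them would not be seen.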
